A study of Mus musculus with 6 samples.

Results

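Polycomb repressive complex 2 (PRC2) was described through the genes of its subunits: Ezh1, Ezh2, Eed and Suz12 for the core, Jarid2, Aebp2, Phf1, Mtf2, Phf19 and Lcor for the accessory subunits. The 10 genes were taken by their symbols, and all 10 were among the 13935 genes of the deposited table. RNA had been sequenced from mouse bone marrow cells that the series calls long-term hematopoietic stem cells (LT-HSCs), the cells that renew blood for life, and that the labels call stem and progenitor cells. By their labels, 3 libraries came from mice in which Mel18 had been knocked out conditionally in blood cells (replicates 4 to 6) and 3 from wild-type mice (replicates 1 to 3), with 1 mouse given per library. The deposited table names its comparison Cre+ against Cre-, so, if Cre+ stands for knockout, effects of genotype and of the Cre recombinase cannot be told apart. The sources used here do not give the Cre driver, the deleted exons, the sorting gate, any pooling, or how old the mice were and of which sex. The p-values measure the spread between these mice.

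PRC2 is the enzyme that methylates lysine K27 of histone H3, the mark of genes silenced by polycomb. Its catalytic subunit is EZH2 or its paralog EZH1, EED reads the mark and stimulates the enzyme, and SUZ12 is the scaffold to which accessory subunits bind. Mel18, the protein of Pcgf2, belongs to the other polycomb complex, PRC1, which ubiquitinates histone H2A and is partly recruited by the mark of PRC2. In many tissues EZH2 prevails in dividing cells and EZH1 in resting ones, and blood stem cells in adult bone marrow rest most of the time.

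Pcgf2 itself had 72, 72 and 107 counts in the libraries labelled knockout and 43, 68 and 54 counts in the wild-type libraries, so the counts over the whole gene did not separate the groups and did not check the labels. Directions are therefore between libraries as labelled. Total counts lay between 33537679 and 37180701 in the libraries labelled knockout and between 26469336 and 30950057 in wild type. The library labelled knockout replicate 6 was most often at an extreme of the 6. Its title carries a library number outside the consecutive run that the other 5 share. Whether it was prepared or sequenced apart is not stated in the labels. It was the lowest of the 6 libraries for 25.9% of the 12603 genes tested and for 5 of the 10 subunit genes (Ezh1, Suz12, Aebp2, Phf19 and Lcor), and the highest for 26.0% of genes. Wild-type replicate 3 came next, the lowest for 20.1% and the highest for 22.0% of genes, and the highest for 4 of the 10 subunit genes. Of 12 LT-HSC marker genes 12 had counts in both groups, and their summed level was 1748 to 2804 CPM (counts per library size after TMM scaling) in the libraries labelled knockout and 922 to 1873 CPM in wild type. The endothelial and stromal markers Cdh5 and Lepr were not analysed here.

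The levels of 3 of the 10 subunit genes lay apart between the groups. Ezh2 and Suz12 were lower in every library labelled knockout than in any wild-type library, with fitted levels of 0.474 and 0.415 times the wild-type level. Phf1, a reader of methylated H3 tails, was 2.30 times higher, again with no overlap. Eed, Mtf2 and Jarid2 differed little between the means. The quasi-likelihood test of edgeR called 0 of the 10 genes at an adjusted p below 0.05, beside 0.143% of all genes tested (0.0159% higher and 0.127% lower). At an unadjusted p below 0.05 stood 1 gene as higher (Phf1) and 2 as lower (Ezh2 and Suz12), beside 11.9% of all genes (5.36% higher and 6.51% lower). The same 3 genes had groups without overlap, as had 21.4% of all genes (10.1% higher and 11.3% lower). DESeq2 called 1 of the 10, Suz12 as lower, beside 4.23% of all genes (1.64% higher and 2.6% lower). The likelihood ratio test of edgeR called Suz12 too, beside 3.43% of all genes (1.14% higher and 2.29% lower), and limma-voom called 0 of all genes. In such bulk libraries fewer cells of a type and less RNA per cell cannot be told apart.

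**Figure D1:**
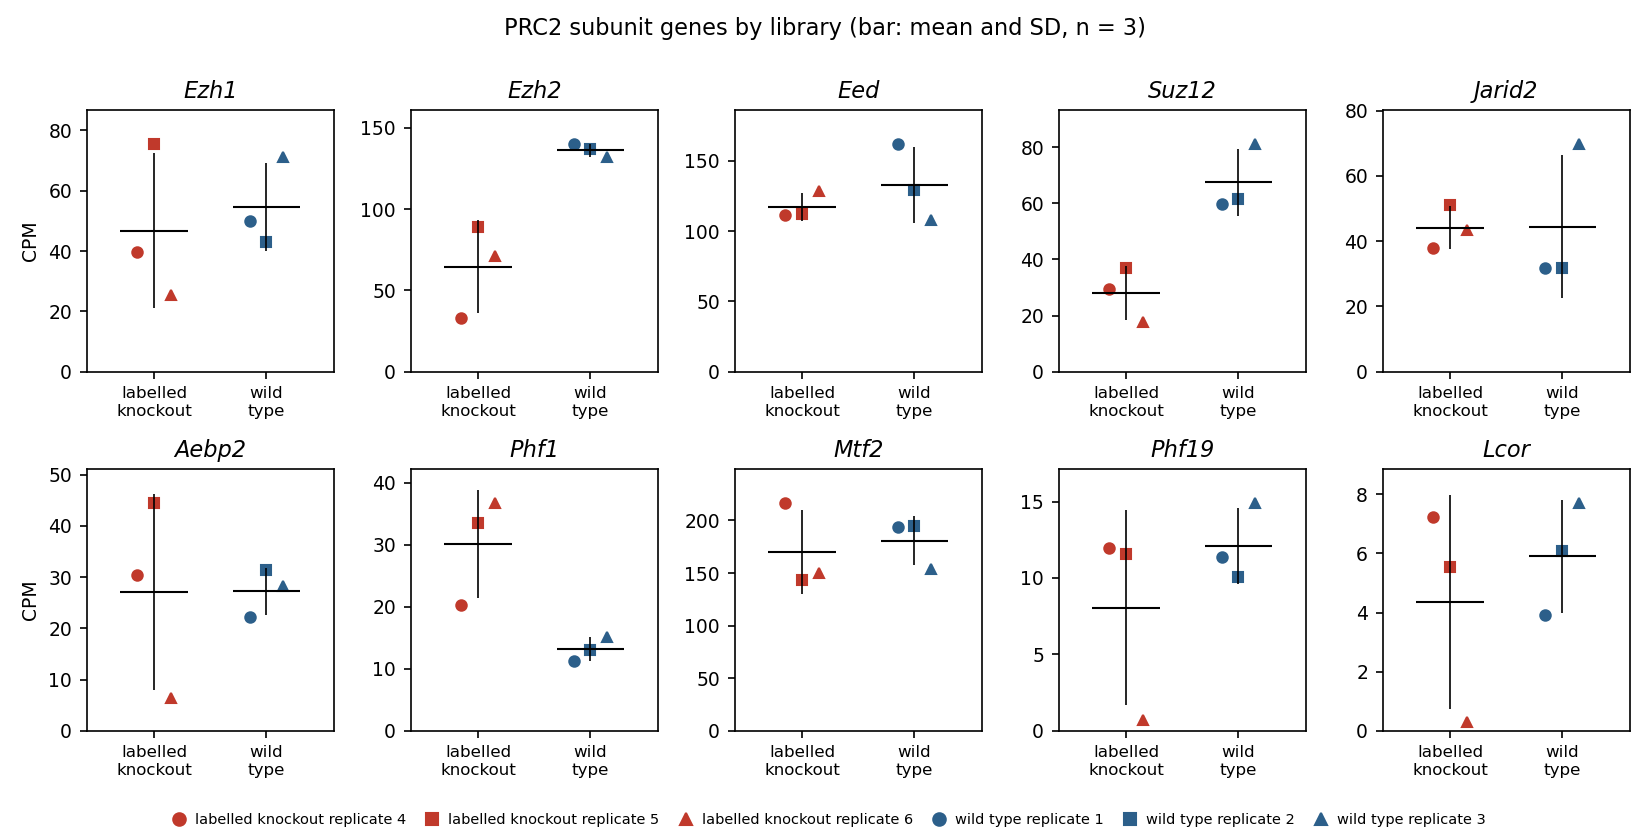
Level of each PRC2 subunit gene in CPM in every library, with libraries labelled knockout in red on the left and wild-type libraries in blue on the right; horizontal bars are means and vertical bars the SD over 3 libraries. The groups do not overlap for Ezh2, Suz12 and Phf1, and replicate 6 (red triangle) is near 0 for Phf19 and Lcor.

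Ezh2 (mm10 chromosome 6, 47530274 to 47595030, minus strand), the catalytic subunit of dividing cells, had 33.2, 89.3 and 71.4 CPM in the libraries labelled knockout replicates 4, 5 and 6, against 140, 137 and 132 CPM in wild-type replicates 1, 2 and 3. The wild-type values were nearly alike, whereas the libraries labelled knockout spread between 0.244 of the wild-type mean in replicate 4 and 0.655 of it in replicate 5. Behind these values stood 1274, 3424 and 2274 counts in the libraries labelled knockout and 4082, 3576 and 4184 counts in wild type. Ezh2 averaged 64.6 ± 28.7 CPM in the libraries labelled knockout and 136 ± 4.09 CPM in wild type (SD, n = 3 each). On the log2 scale this was a difference of -1.08 (SE 0.35, 95% interval of the gene alone -1.88 to -0.27; adjusted p = 0.276, quasi-likelihood test of edgeR, Benjamini-Hochberg).

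Suz12 (chromosome 11, 79993106 to 80034123, plus strand), the scaffold without which the complex falls apart, had 29.4, 36.8 and 17.8 CPM in the libraries labelled knockout, against 59.8, 61.4 and 80.9 CPM in wild type. The highest library labelled knockout, replicate 5, lay well under the lowest wild-type library. Suz12 averaged 28.0 ± 9.57 CPM in the libraries labelled knockout and 67.4 ± 11.8 CPM in wild type (SD, n = 3 each). The fitted log2 fold change of Suz12 was -1.27 (SE 0.35, interval -2.06 to -0.47; adjusted p = 0.216, quasi-likelihood test of edgeR, Benjamini-Hochberg). Its adjusted p was 0.0399 in DESeq2 and 0.0496 in the likelihood ratio test of edgeR, and lay between 0.179 and 0.522 in the other 11 alternatives.

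Eed (chromosome 7, 89954654 to 89980976, minus strand), which binds the methyl mark, had 111, 112 and 129 CPM in the libraries labelled knockout, against 162, 129 and 108 CPM in wild type. The groups overlapped, with wild-type replicate 3 the lowest of the 6 libraries. Its log2 fold change was -0.18 (SE 0.23, interval -0.71 to 0.34). Eed thus kept close to its wild-type mean in the libraries in which Ezh2 and Suz12 lay lower. Per length of transcript, Ezh2 stood at 0.231, 0.616 and 0.429 of Eed in the libraries labelled knockout, and at 0.668, 0.821 and 0.942 of Eed in wild type. Suz12 stood at 0.124, 0.155 and 0.0651 of Eed in the libraries labelled knockout, and at 0.174, 0.224 and 0.353 of Eed in wild type. Neither ratio overlapped between the groups, and both were looked at after the levels were known.

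Ezh1 (chromosome 11, 101191115 to 101226463, minus strand), the catalytic subunit of resting cells, had 39.6, 75.3 and 25.3 CPM in the libraries labelled knockout, against 50.1, 43.0 and 71.0 CPM in wild type. The libraries labelled knockout held both the highest and the lowest value of the 6. Ezh1 had a log2 fold change of -0.23 (SE 0.43, interval -1.21 to 0.76). It was -0.76 without the library labelled knockout replicate 5 and 0.07 without replicate 6. The balance of both paralogs was read within each library, where scaling between libraries plays no part. The log2 ratio of Ezh1 to Ezh2 counts was 0.25, -0.25 and -1.50 in the libraries labelled knockout, against -1.48, -1.67 and -0.89 in wild type. Replicates 4 and 5 lay above all wild-type libraries and replicate 6 among them. The mean ratio was higher by 0.85 on the log2 scale in the libraries labelled knockout (-0.50 ± 0.90 against -1.35 ± 0.41, SD, n = 3 each), with p = 0.3 in a two-sided exact permutation test, whose smallest possible p with 3 against 3 libraries is 0.1. The difference was 0.48 without the library labelled knockout replicate 4 (p = 0.6, exact permutation test) and 1.35 without replicate 6 (p = 0.2, exact permutation test, the smallest that 2 against 3 libraries allow). Per length, Ezh1 made up 43.0%, 34.8% and 18.3% of the summed FPKM (CPM per kilobase of exon) of both paralogs in the libraries labelled knockout, and 18.5%, 16.6% and 25.5% in wild type. Their sum was 21.9, 51.4 and 32.8 FPKM in the libraries labelled knockout, and 64.3, 61.6 and 66.3 FPKM in wild type. The sum was lower in every library labelled knockout, and Ezh2 was the larger part of it in all 6 libraries.

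**Figure D2:**
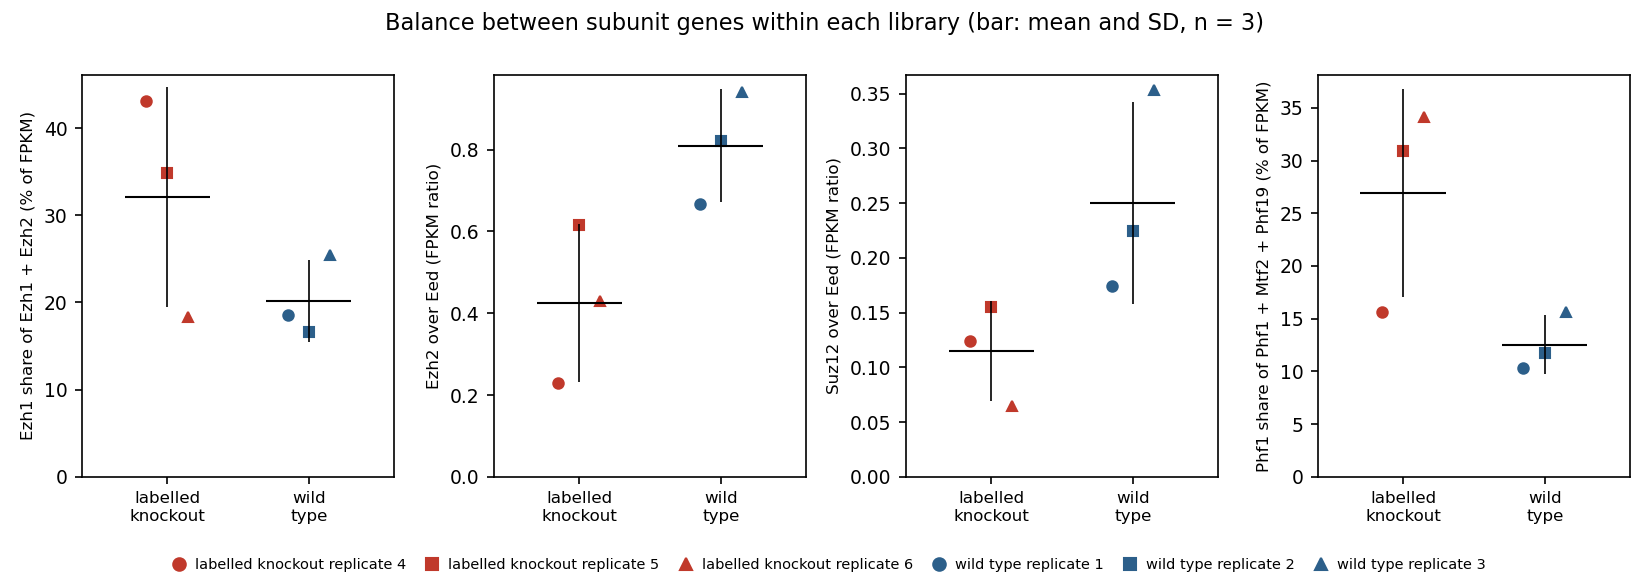
Ratios and shares of subunit genes within each library, computed per length of exon (FPKM), with libraries labelled knockout in red on the left and wild type in blue on the right; bars are the mean and SD over 3 libraries. The Ezh1 share reaches 43.0% in the library labelled knockout replicate 4 and 18.3% in replicate 6, within the wild-type range.

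The accessory subunits sort the core into 2 classes of complex, one with JARID2 and AEBP2, the other with 1 of the Polycomb-like proteins PHF1, MTF2 and PHF19 and, in some complexes, with PALI1, a product of Lcor. Jarid2 (chromosome 13, 44730774 to 44921643, plus strand), which helps to recruit and activate PRC2, had 37.9, 51.1 and 43.3 CPM in the libraries labelled knockout, against 31.8, 31.8 and 69.7 CPM in wild type. Jarid2 had a log2 fold change of -0.01 (SE 0.38, interval -0.89 to 0.87), and 0.45 without wild-type replicate 3, the library with the highest value. Aebp2 (chromosome 6, 140622663 to 140678472, plus strand), a zinc finger subunit that stabilises the complex, had 30.5, 44.4 and 6.44 CPM in the libraries labelled knockout, against 22.3, 31.3 and 28.3 CPM in wild type. Replicate 6 was far under the other 5 libraries and replicate 5 above them, and the log2 fold change of -0.01 (SE 0.62, interval -1.43 to 1.41) was 0.46 without replicate 6.

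Phf1 (chromosome 17, 26933127 to 26937908, plus strand), a Polycomb-like protein that brings PRC2 to chromatin, had 20.2, 33.5 and 36.7 CPM in the libraries labelled knockout, against 11.3, 13.0 and 15.1 CPM in wild type. It was the one gene of the 10 fitted higher, and its lowest library labelled knockout, replicate 4, lay above the highest of wild type. Phf1 averaged 30.1 ± 8.72 CPM in the libraries labelled knockout and 13.1 ± 1.93 CPM in wild type (SD, n = 3 each), from 777 to 1286 counts in the libraries labelled knockout and 329 to 480 counts in wild type. Phf1 had a log2 fold change of 1.20 (SE 0.40, interval 0.28 to 2.12; adjusted p = 0.283, quasi-likelihood test of edgeR, Benjamini-Hochberg). Exons that GENCODE M21 gives to Cuta on the opposite strand cover 33.1% of the counted exons of Phf1. The kit does not mark strand, so reads from that stretch cannot be told apart. Genes on the opposite strand likewise cover 12.3% of the counted exons of Eed, 7.55% of Mtf2, 4.07% of Suz12 and 3.45% of Ezh2. With exons as the deposited table counts them, 0 of the 10 genes overlapped another gene of that table. Cuta as counted in the table had 114, 100.5 and 146 CPM in the libraries labelled knockout and 127, 129 and 78.9 CPM in wild type, with overlapping groups; it was added after the overlap was seen.

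Mtf2 (chromosome 5, 108065674 to 108109219, plus strand) was the most abundant of the Polycomb-like genes and had 216, 144 and 150 CPM in the libraries labelled knockout, against 194, 195 and 154 CPM in wild type. The groups overlapped, with a log2 fold change of -0.09 (SE 0.24, interval -0.64 to 0.47). Phf19 (chromosome 2, 34893755 to 34913976, minus strand), the last Polycomb-like gene, had 11.9, 11.6 and 0.691 CPM in the libraries labelled knockout, against 11.3, 10.04 and 14.9 CPM in wild type. Replicates 4 and 5 lay within the wild-type range, and the value of replicate 6 rested on 22 counts (exact Poisson 95% interval 0.433 to 1.05 CPM, counting error alone). The log2 fold change of Phf19 was -0.58 (SE 0.91, interval -2.67 to 1.50) and -0.04 without replicate 6. Per length, Phf1 made up 15.7%, 31.0% and 34.1% of the 3 Polycomb-like genes in the libraries labelled knockout, and 10.3%, 11.7% and 15.6% in wild type. Replicate 4 thus stood next to wild-type replicate 3, and Mtf2 held the largest share, 62.1% to 78.3% in the libraries labelled knockout and 74.3% to 82.9% in wild type.

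Lcor, the gene of a nuclear receptor corepressor and of PALI1, had 7.22, 5.53 and 0.283 CPM in the libraries labelled knockout, against 3.91, 6.10 and 7.69 CPM in wild type. The value of replicate 6 came from 9 counts, and those of the other libraries from 114 to 277 counts. Lcor had a log2 fold change of -0.44 (SE 1.12, interval -3.01 to 2.13) and 0.11 without replicate 6. The deposited table counted 3 exons on chromosome 19 between 41549639 and 41559781. RefSeq extends the gene to 41596161 and lists Gm340 as its synonym, and the 2993-base exon that GENCODE M21 places in Gm340 (41583544 to 41586536) was not among the counted bases. In human cells the part of PALI1 that binds PRC2 comes from the downstream reading frame joined to LCOR, and the counts here do not cover the exon of that reading frame.

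**Figure D3:**
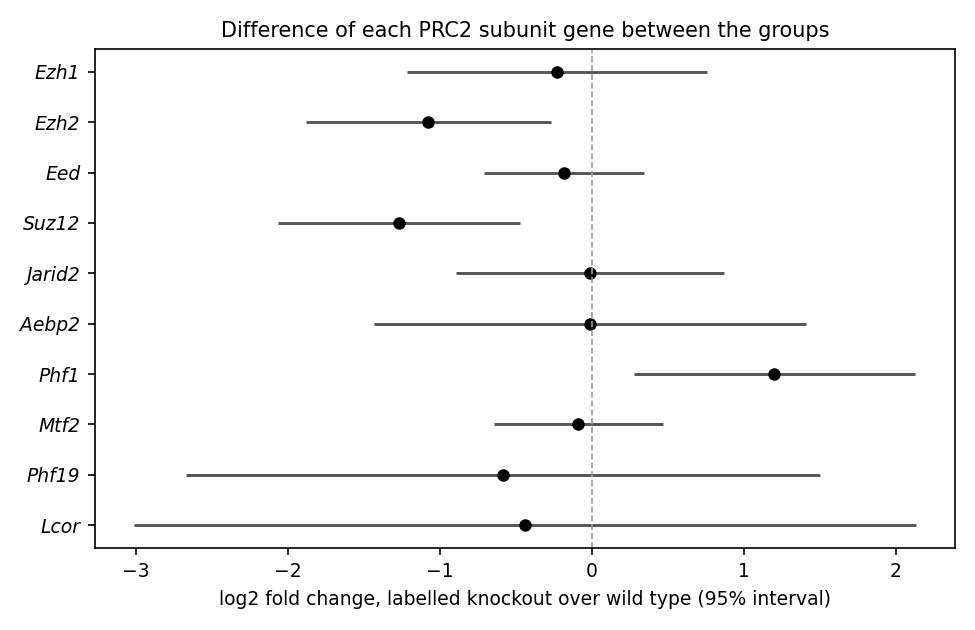
Log2 fold change of each PRC2 subunit gene, libraries labelled knockout over wild type, from edgeR's quasi-likelihood fit, with its 95% interval for the gene alone. The intervals of Ezh2, Suz12 and Phf1 leave out 0, none of the 10 adjusted p-values is below 0.216, and the intervals of Phf19 and Lcor are the widest.

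The promoters of the 3 genes whose groups did not overlap are shown because Ezh2 is known as a target of E2F factors, the activators of S phase genes, from work in human and mouse cells. The windows hold 250 bases before and 50 bases after the RefSeq start (GRCm38.p6), read along the gene's strand, with matches to an E2F motif in capitals.
Ezh2 promoter (chr6:47594981-47595280, minus strand): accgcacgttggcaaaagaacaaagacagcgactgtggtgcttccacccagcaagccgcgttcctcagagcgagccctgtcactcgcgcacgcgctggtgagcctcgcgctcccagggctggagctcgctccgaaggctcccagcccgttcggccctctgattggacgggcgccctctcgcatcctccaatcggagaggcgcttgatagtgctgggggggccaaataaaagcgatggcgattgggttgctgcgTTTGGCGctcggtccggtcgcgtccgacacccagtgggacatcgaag
Suz12 promoter (chr11:79992856-79993155, plus strand): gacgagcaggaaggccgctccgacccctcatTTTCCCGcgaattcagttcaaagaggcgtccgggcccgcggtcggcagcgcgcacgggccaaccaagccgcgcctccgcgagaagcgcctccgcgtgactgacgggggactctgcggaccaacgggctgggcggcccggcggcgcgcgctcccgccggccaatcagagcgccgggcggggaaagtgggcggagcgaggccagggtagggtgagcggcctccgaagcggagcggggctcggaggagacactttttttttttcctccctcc
Phf1 promoter (chr17:26932877-26933176, plus strand): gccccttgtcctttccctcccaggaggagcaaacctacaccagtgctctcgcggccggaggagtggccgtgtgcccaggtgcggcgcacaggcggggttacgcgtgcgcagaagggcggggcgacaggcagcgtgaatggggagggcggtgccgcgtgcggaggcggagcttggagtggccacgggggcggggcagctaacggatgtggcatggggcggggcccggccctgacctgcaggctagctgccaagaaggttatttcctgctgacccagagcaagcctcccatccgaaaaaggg
The motif was searched on both strands as the letters TTTCCCG, as well as the letters TTTGGCG, the letters TTTCGCG and also the letters TTTGCCG. Ezh2 had 1 match, TTTGGCG, 3 bases downstream of the start, and Suz12 had 1, TTTCCCG, 219 bases upstream, while the Phf1 window held none. Among the 10 genes, 3 had a match in a window (Ezh2, Suz12 and Phf19), against 12.8% of the 9625 tested genes with a window. Counted by window, 3 of the 14 windows of these genes (21.4%) had a match, against 6.70% of all 32851 windows. A match describes the letters and shows no binding.

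Levels of different genes were compared per length, as means over the libraries of a group. Overlap of neighbours was read between their ranges over these libraries, not library by library. In the libraries labelled knockout Eed had the highest level (56.9 ± 4.79 FPKM), followed by Mtf2 (32.5 ± 7.66), Ezh2 (24.2 ± 10.7), Phf1 (12.3 ± 3.56), Ezh1 (11.1 ± 6.13), Jarid2 (7.16 ± 1.07), Suz12 (6.40 ± 2.19), Aebp2 (3.32 ± 2.35), Phf19 (2.15 ± 1.71) and Lcor (0.931 ± 0.776, SD, n = 3). In that order the one pair of neighbours whose ranges did not overlap was Eed and Mtf2. Within each library labelled knockout Ezh2 also lay above Phf1, Suz12 above Aebp2, Aebp2 above Phf19, and Phf19 above Lcor. In wild type the order was Eed (64.5 ± 13.1 FPKM), Ezh2 (51.1 ± 1.53), Mtf2 (34.6 ± 4.50), Suz12 (15.4 ± 2.69), Ezh1 (13.0 ± 3.46), Jarid2 (7.21 ± 3.55), Phf1 (5.36 ± 0.789), Aebp2 (3.34 ± 0.562), Phf19 (3.23 ± 0.667) and Lcor (1.26 ± 0.407, SD, n = 3). Here Ezh2 and Mtf2 each lay apart from the next gene below, as did Phf1 and Phf19. The ranges of Eed and Ezh2 all but met. They came to 52.456 FPKM in the lowest library of Eed (replicate 3) and 52.441 FPKM in the highest of Ezh2 (replicate 1). Within each wild-type library Eed lay above Ezh2. The ranges of the other neighbours overlapped, though Suz12 lay above Ezh1 and Ezh1 above Jarid2 within each wild-type library. Ezh2 thus stood at rank 3 in the libraries labelled knockout and at rank 2 in wild type, and Suz12 at rank 7 in the libraries labelled knockout and at rank 4 in wild type.

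Among other genes that act with PRC2 or on its mark, the groups overlapped for all 13 tested in these 3 lists. Over all genes tested, 21.4% had groups without overlap and 11.9% had an unadjusted p below 0.05. The quasi-likelihood test called 0.143% of them, DESeq2 4.23%, the likelihood ratio test 3.43% and limma-voom 0. Of 4 further partners analysed, none was called by the quasi-likelihood test, none had an unadjusted p below 0.05 and none was called by DESeq2, the likelihood ratio test or limma-voom. Rbbp4 and Rbbp7, the histone chaperones of the complex, stood at -0.10 (SE 0.36) and -0.21 (SE 0.21) on the log2 fold change scale. Epop, an adaptor between PRC2 and elongin that the table lists as E130012A19Rik, had -0.14 (SE 0.53), and Lcorl, the paralog of Lcor, -0.73 (SE 0.59). Rbbp4 had 223, 474 and 623 CPM in the libraries labelled knockout, against 546, 407 and 459 CPM in wild type, so that the same replicate 4 that was lowest for Ezh2 was lowest here too. Ezhip, an inhibitor of PRC2, was not analysed here.

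As background, 6350 of the 12603 genes tested were fitted lower and 11.9% had an unadjusted p below 0.05. The quasi-likelihood test called 0.143% of them, DESeq2 4.23%, the likelihood ratio test 3.43% and limma-voom 0. Of 4 genes of enzymes that remove or compete with the mark, 4 were fitted lower. None was called by any of the 4 tests or had an unadjusted p below 0.05. The demethylase genes Kdm6a and Kdm6b were at log2 fold changes -0.96 (SE 0.52) and -0.52 (SE 0.86), and the acetyltransferase genes Ep300 and Crebbp -0.21 (SE 0.60) and -0.08 (SE 0.72). Crebbp had 55.1, 44.4 and 4.84 CPM in the libraries labelled knockout and 28.5, 46.7 and 35.3 CPM in wild type, with replicate 6 again far under the rest. Of 5 genes of H3K36 methyltransferases, whose mark hinders PRC2, 4 were fitted lower and none was called by any of the 4 tests or had an unadjusted p below 0.05. These were Nsd2, listed as Whsc1 (-0.88, SE 0.43), Nsd3, listed as Whsc1l1 (-0.87, SE 0.55), Setd2 (-0.56, SE 0.96) and Ash1l (-0.04, SE 0.46), while Nsd1 was at 0.15 (SE 0.43). Setd2 had 51.0, 40.9 and 1.45 CPM in the libraries labelled knockout, against 23.8, 51.7 and 62.3 CPM in wild type. Its value in replicate 6 rested on 46 counts. In both lists every gene but Kdm6b was lowest of the 6 libraries in replicate 6, which was the lowest for 25.9% of all genes.

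Of 7 genes known as repressed by PRC2 in blood or other tissues, 5 were listed and 3 had enough counts for the test. All 3 were fitted higher, as were 6253 of the 12603 genes tested. None passed the quasi-likelihood test of edgeR, and 1 had an unadjusted p below 0.05 as higher, beside 5.36% of all genes. DESeq2 and the likelihood ratio test each called 1 as higher, beside 1.64% and 1.14% of all genes, and limma-voom 0. Of the 3, 2 had higher groups without overlap, beside 10.1% of all genes. Cdkn1c, an imprinted inhibitor of cyclin-dependent kinases that keeps stem cells at rest, had 60.8, 70.9 and 49.0 CPM in the libraries labelled knockout, against 10.2, 23.2 and 3.25 CPM in wild type. Cdkn1c had a log2 fold change of 2.30 (SE 0.64; adjusted p = 0.22, quasi-likelihood test of edgeR, Benjamini-Hochberg). Hmga2, a chromatin protein of fetal stem cells, had 16.7, 23.0 and 14.1 CPM in the libraries labelled knockout, against 9.87, 9.66 and 4.63 CPM in wild type, also without overlap (1.16, SE 0.52). Igf2bp3, an RNA-binding protein of fetal cells, overlapped (0.10, SE 1.26). Igf2 had 0.704, 1.20 and 0 CPM in the libraries labelled knockout and 0 counts in wild type, while Cdkn2b had 0 counts in the libraries labelled knockout and 0, 0 and 0.441 CPM in wild type. Cdkn2a and Lin28b were not analysed here. The part of Ezh2 and Suz12 in the levels of these genes was not tested.

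The libraries also differed in genes of the cell cycle, with which the level of Ezh2 is known to go in many cells. Of 20 genes of G2 and M phase 20 were fitted lower, 1 was called lower by the quasi-likelihood test (Ect2), 16 by DESeq2, 14 by the likelihood ratio test and 0 by limma-voom, and 19 had an unadjusted p below 0.05, with a median log2 fold change of -1.73 beside -0.01 over all genes tested and -0.20 over the 10 subunit genes. Their summed level was 871, 1695 and 902 CPM in the libraries labelled knockout, against 3375, 4226 and 2937 CPM in wild type. Top2a, the topoisomerase that untangles chromosomes, had 80.6, 161 and 50.9 CPM in the libraries labelled knockout, against 316, 455 and 373 CPM in wild type. Ccnb2 and Cdc20, a mitotic cyclin and an activator of its destruction, stood at log2 fold changes of -0.94 (SE 0.32, with overlap) and -1.30 (SE 0.27, without). Of 20 DNA replication genes 20 were fitted lower (median -0.91), 15 had an unadjusted p below 0.05, none was called by the quasi-likelihood test or limma-voom, 13 by DESeq2 and 12 by the likelihood ratio test. Their sum was 3351, 3857 and 4005 CPM in the libraries labelled knockout, against 7160, 6834 and 6775 CPM in wild type. Mcm3, Mcm6 and Mcm7, subunits of the replicative helicase, stood at -0.87 (SE 0.19), -0.83 (SE 0.20) and -0.82 (SE 0.24), each without overlap. Over all genes tested, 6.51% had an unadjusted p below 0.05 as lower and 11.3% had lower groups without overlap. The quasi-likelihood test called 0.127% of all genes lower, DESeq2 2.6% and the likelihood ratio test 2.29%.

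Among the 8 E2F factors 7 were fitted lower and none was called by the quasi-likelihood test or limma-voom. At an unadjusted p below 0.05 stood 2 as lower, beside 6.51% of all genes. DESeq2 and the likelihood ratio test called 2 each as lower, beside 2.6% and 2.29% of all genes. Groups without overlap were seen for 11.3% of all genes as lower and for 10.1% as higher. E2f1, an activator of S phase genes, had 39.3, 55.8 and 53.2 CPM in the libraries labelled knockout, against 93.5, 124 and 106 CPM in wild type, and E2f8, a repressor induced in S phase, had 14.1, 22.1 and 8.39 CPM in the libraries labelled knockout, against 41.4, 62.3 and 55.0 CPM in wild type. E2f7 did not overlap either (-2.06, SE 1.28), E2f2 and E2f3 did (-1.39, SE 0.74, and -0.66, SE 0.53), E2f4 and E2f6 were at -0.06 (SE 0.31) and -0.16 (SE 0.27), and E2f5 was the one fitted higher, without overlap (0.98, SE 0.49). The value of E2f7 in the library labelled knockout replicate 6 rested on 1 count, against 229 and 445 counts in replicates 4 and 5. In each library labelled knockout Ezh2, Suz12 and both summed cell cycle lists lay below every wild-type library. Within that group the G2 and M phase sum, Ezh2 and Suz12 were each highest in replicate 5. The sum was nearly alike in replicates 4 and 6 (0.248 and 0.257 of the wild-type mean). Ezh2 stood at 0.244 and 0.524 of its wild-type mean there, and Suz12 was lowest in replicate 6. The DNA replication sum was highest in replicate 6, unlike Ezh2 and Suz12.

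**Figure D4:**
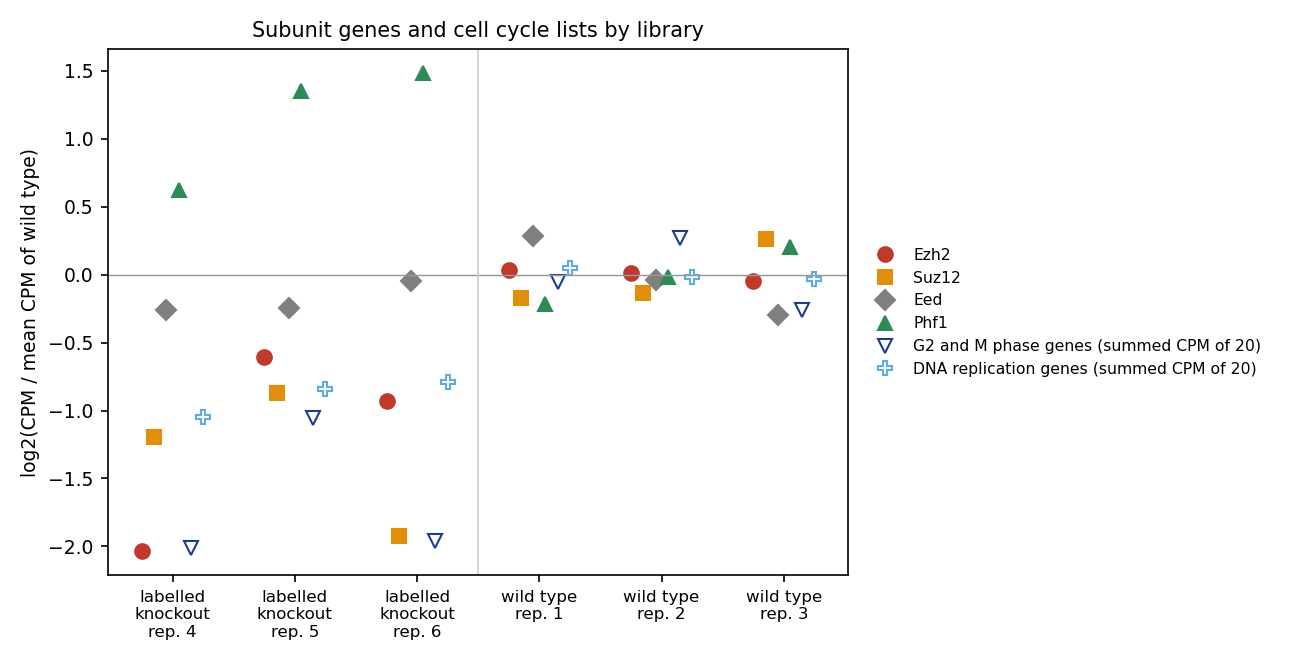
Level of Ezh2, Suz12, Eed and Phf1 and the summed level of 20 G2 and M phase genes and 20 DNA replication genes in each library, as log2 of CPM over the wild-type mean, with libraries labelled knockout left of the vertical line. Ezh2, Suz12 and both lists lie below 0 in all 3 libraries labelled knockout, Phf1 lies above 0, and Eed lies close to 0.

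Markers of other cells differed between the same libraries. Over all genes tested, 6.51% had an unadjusted p below 0.05 as lower and 5.36% as higher. The quasi-likelihood test called 0.127% of all genes lower and 0.0159% higher. DESeq2 called 2.6% lower and 1.64% higher, and the likelihood ratio test 2.29% and 1.14%. Groups without overlap were seen for 11.3% of all genes as lower and for 10.1% as higher. Of 12 markers of lineage-primed progenitors 12 were fitted lower (median -4.14), with 8 at an unadjusted p below 0.05, and none was at 0 in either group. The quasi-likelihood test called 1 of them lower (Cd48), DESeq2 7, the likelihood ratio test 8 and limma-voom 0. Their sum was 1670, 525 and 1670.1 CPM in the libraries labelled knockout, against 14901, 6350 and 10350 CPM in wild type. Mpo, the granule peroxidase of myeloid cells, had 342, 16.9 and 109 CPM in the libraries labelled knockout, against 8704, 3669 and 6355 CPM in wild type, while Cd34 and Prtn3 overlapped between the groups (-0.75, SE 0.47, and -0.61, SE 0.35). Of 16 tested markers of mature cells 12 were fitted lower and 7 had an unadjusted p below 0.05 as lower. The quasi-likelihood test called 1 lower (Ccr2), DESeq2 and the likelihood ratio test 4 each and limma-voom 0. Sums over the 18 mature markers found, untested ones included, were 809 to 1459 CPM in the libraries labelled knockout and 1061 to 2168 CPM in wild type. Nkg7, a granule protein of killer cells, did not overlap (-1.13, SE 0.33), and Itga2b and Pf4, genes of platelet precursors, did (-0.06, SE 0.68, and 0.62, SE 1.26). The LT-HSC markers were all fitted higher (median 0.97), with 4 at an unadjusted p below 0.05. The quasi-likelihood test called 1 higher (Procr), DESeq2 and the likelihood ratio test 2 each and limma-voom 0. Their median was 0.62 without wild-type replicate 1 and 0.61 without the library labelled knockout replicate 5. Kit, Gata2 and Meis1, the most abundant, were at 0.13 (SE 0.29), 0.52 (SE 0.46) and 0.78 (SE 0.28). The part of these cell cycle and cell type differences in the levels of Ezh2, Suz12 and Phf1 was not tested.

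By the root mean square distance between centred profiles of log2 CPM over the 6 libraries, the 5 genes most like Ezh2 among 10378 compared were Tubg1 (0.10), the gamma-tubulin of the centrosome, Als2cl (0.11), Zranb3 (0.14), an enzyme of stalled replication forks, Mfsd3 (0.14) and Sapcd2 (0.14). The median distance over all genes compared was 0.88. Tubg1 had 29.3, 88.3 and 63.2 CPM in the libraries labelled knockout, against 150, 125 and 120 CPM in wild type. Of the other subunit genes Suz12 was the nearest to Ezh2, at a distance of 0.56 and rank 865, followed by Eed (0.68) and Ezh1 (0.71), and Lcor was the farthest (1.65). The subunit genes thus did not share 1 profile across these libraries.

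The authors' deposited table gives its own log2 fold changes for Cre+ against Cre-, without naming the libraries that entered, and these differ from those fitted here to the deposited counts. Across the 12603 genes tested, the fold changes of the authors' deposited table and the fitted ones had a Pearson r of 0.42 and the same sign for 65.1% of genes (across genes, which are not independent). In the authors' deposited table Ezh2 stood at -0.72, Suz12 at -0.42 and Phf1 at 0.38, the same directions as in the fit and smaller in size. The sign was the same for 6 of the 10 subunit genes, and it was the opposite for Ezh1 (0.35 in the authors' deposited table), Eed (0.07), Mtf2 (0.0056) and Lcor (0.02). All 10 had an adjusted p of 1 in the authors' deposited table, where 1 gene in all stood below 0.05. The cause of the difference was not tested, and every other fold change here rests on the library labels.

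The spread between replicates differed by group. The SD of log2 CPM over the libraries labelled knockout was 0.64 as the median of the 10 genes and 0.52 over all genes tested, and over wild type it was 0.27 and 0.42. Ezh2 had an SD of 0.75 in the libraries labelled knockout and 0.04 in wild type. The widest spreads in the libraries labelled knockout were those of Lcor (2.44), Phf19 (2.29) and Aebp2 (1.47), and in replicate 6 these genes stood 22.5, 17.0 and 5.81 times under the mean of replicates 4 and 5. Jarid2 and Eed were the subunit genes with the narrower spread in the libraries labelled knockout, for Jarid2 an SD of 0.21 in these and 0.65 in wild type.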

How the data were processed

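The authors deposited 1 table of 13935 genes with raw counts per gene and library, on mm10. Their processing notes name STAR 2.5, Trimmomatic 0.40, edgeR 3.28.1, MultiQC 0.11.5 and FastQC. The table's name adds featureCounts. Another measure deposited there, the summed exon length of each gene, was used for FPKM. Libraries came from the SMART-Seq v4 and Nextera XT kits, which do not mark strand, per the labels' protocols. The 6 log2 FPKM columns were not used. The log2 fold changes and adjusted p-values of the authors' own comparison, as deposited, were set beside the fit and used for no other result.

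Genes passing filterByExpr (minimum 10 counts; 12603 genes, all 10 subunit genes among them) were fitted in R 4.3.3 with edgeR 4.0.16, TMM scaling and the robust quasi-likelihood test, two-sided, with Benjamini-Hochberg adjustment over all genes tested and a threshold of 0.05. Log2 fold changes are knockout over wild type. Alternatives were DESeq2 1.42.0 (81 adjusted p-values not given), limma-voom (limma 3.58.1), the likelihood ratio test, other scalings and filters, and each library left out. The ratio of Ezh1 to Ezh2 used a pseudocount of 0.5 and an exact permutation test in SciPy 1.17.1. The fits were tested on simulated counts with the same spread for every gene and no deviating library. That test cannot show how the fits behave on these libraries. Intervals cover counting error or the spread between libraries, and reads carry no molecular identifiers. Likeness to Ezh2 used genes with a mean log2 CPM of at least 1. Named genes were Pcgf2, the 10 subunit genes, all members of lists of up to 8 genes, the 3 most abundant members of longer lists, and the 5 genes most like Ezh2; Cuta and the called list members were named after their values were seen. The subunit genes and lists were chosen with earlier results of these data known. Promoters are from RefSeq (10 of 10 genes matched, 14 windows).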

Additional observations from a re-analysis of the deposited data

How the results depend on the processing

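Ezh2, Suz12, Eed and Phf19 were fitted lower and Phf1 higher under all 13 alternatives, between -1.41 and -0.76 for Ezh2, between -1.52 and -1.03 for Suz12 and between 1.04 and 1.42 for Phf1. Over the whole table the quasi-likelihood test called 2 genes as higher and 16 as lower. DESeq2 called 205 and 325, the likelihood ratio test 144 and 288, limma-voom 0 and 0, and the fit with no filter on low counts called 25 as lower. With 1 library left out the calls ran between 0 and 2 as higher and between 0 and 47 as lower, the most without the library labelled knockout replicate 6. DESeq2 and the likelihood ratio test each called 1 subunit gene as lower, Suz12. The direction of Jarid2 turned in DESeq2 (0.0074), limma-voom (0.0601) and RLE scaling (0.0074), and that of Aebp2 in DESeq2 (0.0059), RLE scaling (0.0059) and scaling by library totals (0.0409). With 1 library left out the log2 fold change ran between -0.7609 and 0.0708 for Ezh1, -0.2065 and 0.4535 for Jarid2, -0.5624 and 0.4560 for Aebp2, -0.2983 and 0.0074 for Mtf2, -0.9801 and -0.0416 for Phf19, and -1.0193 and 0.1119 for Lcor. In limma-voom Phf19 was at -1.20 and Lcor at -1.17, against -0.58 and -0.44 in the quasi-likelihood fit; the cause was not tested. The difference in the log2 ratio of Ezh1 to Ezh2 lay between 0.48 and 1.35. No paired analysis was run, because the labels do not state whether mice of the groups were paired. With 3 libraries a group, precision is limited by the spread between libraries, and for Phf19 and Lcor in replicate 6 by counts.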
